A study of Mus musculus with 23 samples.

Results

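Complement is a set of plasma proteins, membrane regulators and receptors, and macrophages make part of it themselves. The 9 complement genes expressed by macrophages that are described here are C1qa, C1qb and C1qc, C2, C4b, C3, Cfb, Cfp and Vsig4. They were chosen by gene name, with earlier results of these data known, and all 9 were found in both deposited tables, which hold 22524 and 25700 genes. Messenger RNA was measured in 23 libraries of 8 groups, each from 1000 sorted macrophages of C57BL/6 mice. Day-7 pups gave spleen macrophages (RPM_d7, red pulp macrophages) and bone marrow macrophages (BMM_d7), with 3 wild-type (WT) and 3 vavCre libraries for each tissue, and these 12 libraries share the first table. The second table holds red pulp macrophages of pups of the same age, of the genotypes Spic_WT (3 libraries) and Spic_KO (2 libraries), and red pulp macrophages of adults in the groups RPM_TAM_WT (2 libraries, genotype WT) and RPM_TAM_CreERT2 (4 libraries). vavCre is a Cre recombinase under a Vav promoter, which is active in blood-forming cells, so a deletion by it is not limited to macrophages. CreERT2 is a Cre that acts after tamoxifen, which is how TAM is read here, since no label defines it. The labels name no floxed gene. The series concerns PPARγ, a nuclear receptor, and its design text speaks of the Pparg-deficient cells that remained, which limits the sorted cells to those still present. Whether the replicates come from different animals is not labelled, and the p-values below measure only the spread between libraries, which may be technical. In libraries of pooled cells, fewer cells of a type and less RNA per cell cannot be told apart.

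The classical pathway starts when C1q, built from the A, B and C chains encoded by C1qa, C1qb and C1qc, binds antibody or dying cells, and tissue macrophages are a main source of C1q. C4 and C2 then form the convertase that splits C3, the central protein of all pathways. Factor B (Cfb) forms the convertase of the alternative pathway, and properdin (Cfp) stabilises it. Vsig4, also named CRIg, is a macrophage receptor for C3 fragments, best known on Kupffer cells of the liver. The liver makes most plasma C3, C4, C2 and factor B, while C1q and properdin come largely from macrophages and other myeloid cells. Red pulp macrophages of the spleen and macrophages of erythroblastic islands in the marrow take up whole red cells or the nuclei that red cell precursors expel.

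The genes lie in few places (GRCm38, GENCODE vM21, all on the minus strand). C1qa (chr4:136895917-136898803), C1qc (chr4:136889804-136893065) and C1qb (chr4:136880129-136886187) form a cluster of 18.7 kb. C2 (chr17:34862604-34898265), Cfb (chr17:34856374-34862518) and C4b (chr17:34728380-34743882) lie within 169.9 kb. C3 (chr17:57203970-57228136) is elsewhere on that chromosome, and Cfp (chrX:20925454-20931555) and Vsig4 (chrX:96247203-96293438) are on the X chromosome. The readthrough gene Gm20547 shares 42.8% of the exon bases of C2 and 79.5% of those of Cfb, so the reads of C2 and Cfb are uncertain. C4a, a near copy of C4b, is in neither table, so reads of both copies may stand under C4b. The promoters of 5 of the 9 genes matched the RefSeq table (GRCm38.p6). Those of C1qb and C1qc (C1qa had no match), C3 and Vsig4 (the genes that rose with vavCre in spleen beside C1qc) are shown. Each spans 250 bases before to 50 after the RefSeq start, 5′ to 3′ on the gene's strand. Capitals mark GAGGAA, the PU box core bound by the ETS family that holds PU.1 and SPIC, and AGGTCA, the core bound by nuclear receptors, on either strand (TTCCTC and TGACCT on the other).
C1qb promoter, chr4:136886151-136886450, minus strand: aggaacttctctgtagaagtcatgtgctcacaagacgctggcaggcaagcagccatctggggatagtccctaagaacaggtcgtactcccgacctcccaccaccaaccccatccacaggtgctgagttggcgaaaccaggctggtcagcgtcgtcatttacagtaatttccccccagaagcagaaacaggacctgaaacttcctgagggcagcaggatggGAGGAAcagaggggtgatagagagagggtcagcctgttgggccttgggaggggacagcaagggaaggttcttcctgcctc
C1qc promoter, chr4:136892865-136893164, minus strand: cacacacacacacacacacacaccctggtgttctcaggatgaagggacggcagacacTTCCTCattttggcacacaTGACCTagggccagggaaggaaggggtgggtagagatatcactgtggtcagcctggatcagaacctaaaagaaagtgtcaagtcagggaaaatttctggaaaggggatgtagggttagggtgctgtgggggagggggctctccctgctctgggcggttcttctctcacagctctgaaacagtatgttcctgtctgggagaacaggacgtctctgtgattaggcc
C3 promoter, chr17:57228087-57228386, minus strand: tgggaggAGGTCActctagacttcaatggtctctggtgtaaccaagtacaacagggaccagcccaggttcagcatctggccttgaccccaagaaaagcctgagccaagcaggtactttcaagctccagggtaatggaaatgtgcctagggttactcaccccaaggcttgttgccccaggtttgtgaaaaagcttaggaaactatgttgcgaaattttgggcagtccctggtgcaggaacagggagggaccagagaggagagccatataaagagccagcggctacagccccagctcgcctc
Vsig4 promoter, chrX:96293389-96293688, minus strand: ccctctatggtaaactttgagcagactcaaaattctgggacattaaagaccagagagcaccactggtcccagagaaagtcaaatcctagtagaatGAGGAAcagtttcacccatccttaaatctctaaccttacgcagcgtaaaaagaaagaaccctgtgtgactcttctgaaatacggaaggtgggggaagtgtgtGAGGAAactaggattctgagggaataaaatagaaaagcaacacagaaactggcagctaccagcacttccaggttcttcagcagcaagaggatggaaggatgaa
C1qb held 1 PU box core, at -30 from the start, and C1qc held 1 on the opposite strand at -193 with the nuclear receptor core on the opposite strand at -174. C3 held the nuclear receptor core at -243 and no PU box core in this window. Vsig4 held the PU box core at -155 and at -53. Among 32851 promoters of the same length, 28.3% held GAGGAA and 16.3% held AGGTCA on either strand, so such matches are common and are a description only. Cfp, whose promoter is not shown, held the PU box core on the opposite strand at +7 and +23 and the nuclear receptor core at +39. The NF-kB core GGGACTTTC (0.353% of promoters) and the interferon core GAAANNGAA (8.56%) were found in none of the 5 promoters. The GENCODE start of C1qc lies 151 bases upstream of the RefSeq start.

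Depth and composition differed between the libraries. The first table held 4262483 to 21744201 reads a library and the second 692904 to 6289360. Spleen libraries of the first table held 11618368 reads or more and marrow libraries 10846459 or fewer. Spic_WT libraries held 4235374 or more and Spic_KO 2852899 to 3067529. RPM_TAM_WT libraries held 1901915 or more and RPM_TAM_CreERT2 1668714 or fewer. Depth thus did not overlap in the tissue, Spic_KO and adult comparisons, while vavCre and WT overlapped within each tissue. The part of depth in the complement values was not tested. Values are read counts scaled by the authors within a table, so levels compare within a table only, and counting intervals would cover counting error only. Among the general macrophage markers Adgre1, Csf1r, Mertk, Cd68, Fcgr1, Cd5l and Lyz2, 7 of 7 were above 0 in every library. Liver is the main source of plasma complement, and its summed markers reached at most 10.04 (first table) and 55.9 (second table), with at least 3 of 6 at 0 in every library. Spic was read at 931 and 1236 in the Spic_KO libraries against 1993 to 3110 in Spic_WT, so reads of the targeted gene remained. For Pparg the spleen range was 1550 to 2124 (WT) and 2496 to 4002 (vavCre) and the marrow range 1601 to 1703 (WT) and 1813 to 2972 (vavCre). The adult range of Pparg was 92.3 to 167.8 in RPM_TAM_WT and 181.7 to 261.2 in RPM_TAM_CreERT2, and Spic_KO had 21.7 to 26.0 against 210.6 to 330.4 in Spic_WT. The deleted exons are not given in the sources used here, so a gene total checks no deletion. The Spic_KO and adult libraries stood apart from Spic_WT. Lars2 took 2.09 to 2.15% of all values in Spic_KO, 8.57 to 12.1% in RPM_TAM_WT and 5.59 to 8.70% in RPM_TAM_CreERT2, against 0.274 to 0.791% in Spic_WT. B2m took 0.133 to 0.222% in Spic_KO against 0.505 to 0.728% in Spic_WT, mitochondrial genes 1.24 to 1.89% against 3.77 to 4.48%, and the ratio of the near copies Hba-a2 and Hba-a1 was 0.785 to 0.793 against 0.398 to 0.437. No library of one genotype had the composition of the other, so genotype and library composition cannot be told apart in the Spic_KO comparison. Ftl1 took 0.741 to 0.938% in RPM_TAM_WT and 0.493 to 0.586% in RPM_TAM_CreERT2, and the ratio of Hba-a2 to Hba-a1 was 0.578 to 0.802 and 0.862 to 0.927. Group and composition cannot be told apart in these measures either, while the Lars2, B2m and mitochondrial shares of the adult groups overlapped.

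**Figure D1:**
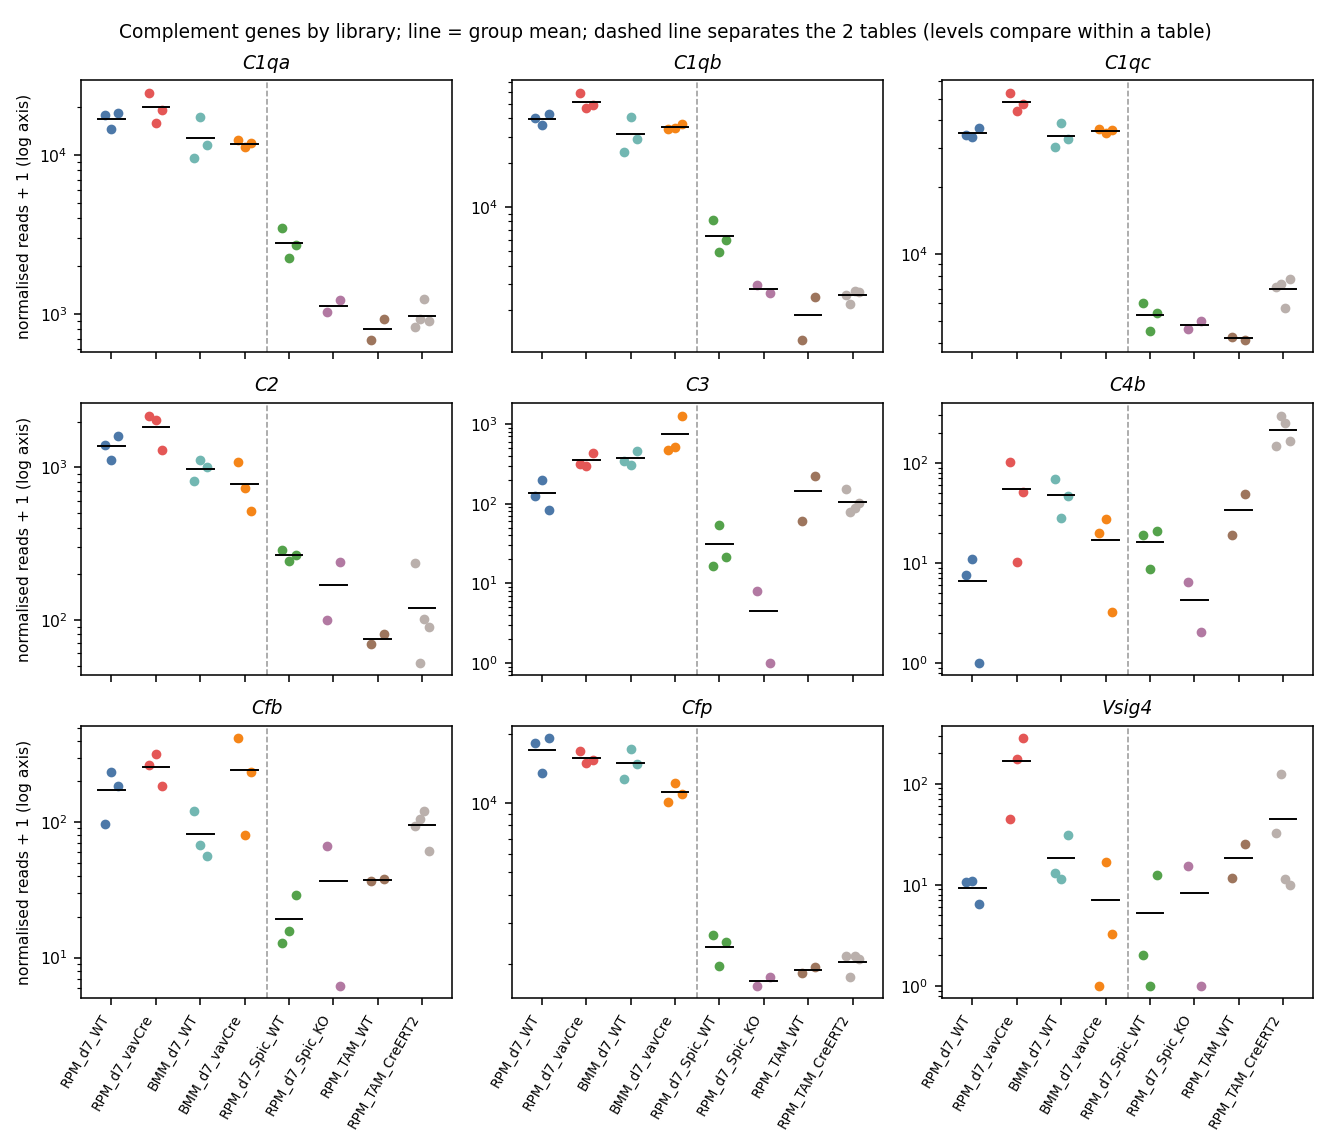
Normalised reads plus 1 (log axis) of the 9 complement genes, 1 point per library and a line at the group mean, with a dashed line between the tables. C1qa, C1qb, C1qc and Cfp lie far above the other genes in each table, and Vsig4 lies between 43.6 and 280.0 in the RPM_d7_vavCre libraries against 5.48 to 9.97 in RPM_d7_WT.

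The 9 genes differed widely in level. Exon length here is the union of all exons annotated for a gene, which can be longer than the transcript made, so values per kb depend on it. Divided by exon length, C1qb was the highest in RPM_d7_WT, at 36428 ± 2913 normalised reads per kb (SD, n = 3), followed by C1qc at 18091 ± 899, C1qa at 16272 ± 1908 and Cfp at 9772 ± 1750. The C and A chains differed by less than their spread. C2 followed at 355 ± 63.2 per kb, Cfb at 60.6 ± 24.9, C3 at 26.1 ± 11.4, Vsig4 at 5.64 ± 1.69 and C4b at 0.973 ± 0.892. The 3 C1q chains and Cfp ranked above 99.4 to 99.9% of genes in each of the 8 groups, by mean value. C2 ranked above 86.0 to 96.5% of genes, while Vsig4 in BMM_d7_vavCre ranked above 46.2% and C4b in RPM_d7_WT above 44.8%. The order of the chains per kb changed in the second table: C1qb led with 5859 ± 1543 in Spic_WT, whereas C1qc led in both adult groups, with 2167 ± 56.8 in RPM_TAM_WT (n = 2) and 3621 ± 446 in RPM_TAM_CreERT2 (n = 4), where C1qb had 1711 ± 791 and 2323 ± 204. In RPM_TAM_WT these chains differed by less than the spread of C1qb.

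In all, 7 comparisons were tested across all genes, with 15130 genes tested in the first table and 16650 in the second, and an adjusted p (limma, Benjamini-Hochberg over all genes tested) under 0.05 as the call. With vavCre in spleen, 3 of the 9 genes rose (C1qc, C3 and Vsig4) and none fell, where 2.98% of all genes rose and 5.52% changed. The median log2 change of the 9 was 0.46 beside -0.02 for all genes. With vavCre in marrow, limma called 0 of 9, where 7.81% of all genes changed. Of these 9, 3 had an unadjusted p under 0.05, edgeR called 0 and DESeq2 called 2 (Cfb higher, Cfp lower). Of 15003 genes DESeq2 called 703 higher and 866 lower there. The share of all genes at an unadjusted p under 0.05 is not given, so such counts here and below have no background. The median was -0.07 beside -0.04 for all genes. For the difference between these effects (the interaction), limma called 0 of 9 where 0.119% of all genes were called, 4 had an unadjusted p under 0.05, edgeR called 0 and DESeq2 called 1 (Vsig4). For it DESeq2 called 68 of 15003 genes higher and 25 lower. Between wild-type tissues, 1 of 9 (C3) was lower in spleen than in marrow, where 1.82% of all genes were lower and 3.89% differed. Between vavCre tissues, 6 of 9 were higher in spleen, where 2.68% of all genes were higher and 3.5% differed (DESeq2 called 586 genes higher and 364 lower, limma 405 and 124). That median was 0.56 beside 0.03 for all genes. In Spic_KO, 3 of 9 fell (C1qa, C1qb and C3) and none rose, where 2.48% of all genes fell and 3.95% changed, with a median of -0.78 beside 0 for all genes. Over all genes limma called 245 higher and 413 lower there, edgeR 554 and 395 (TMM) or 655 and 380 (RLE), and DESeq2 907 and 787, so the balance of directions differed between the tools. C1qa and C1qb were lower and called in each, C3 was called by limma and DESeq2, and C4b (lower) by DESeq2 alone. The count over all genes changed with single Spic_KO libraries, as limma called 955 higher and 1017 lower without replicate 1, and 90 and 207 without replicate 2. In RPM_TAM_CreERT2, limma called 0 of 9 where 0.144% of all genes were called, 3 had an unadjusted p under 0.05, edgeR called 0 with TMM factors and 1 (C4b) with RLE factors, and DESeq2 called 2 (C1qc and C4b). Over all genes limma called 10 higher and 14 lower there, and edgeR 8 and 21 (TMM) or 11 and 22 (RLE). DESeq2 called 64 higher and 66 lower of 16602. The 2 vavCre effects share libraries with the 2 tissue comparisons, so these counts are not independent of each other. The 9 genes were chosen with earlier results of these data known, so the shares of all genes beside them are a description only.

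**Figure D2:**
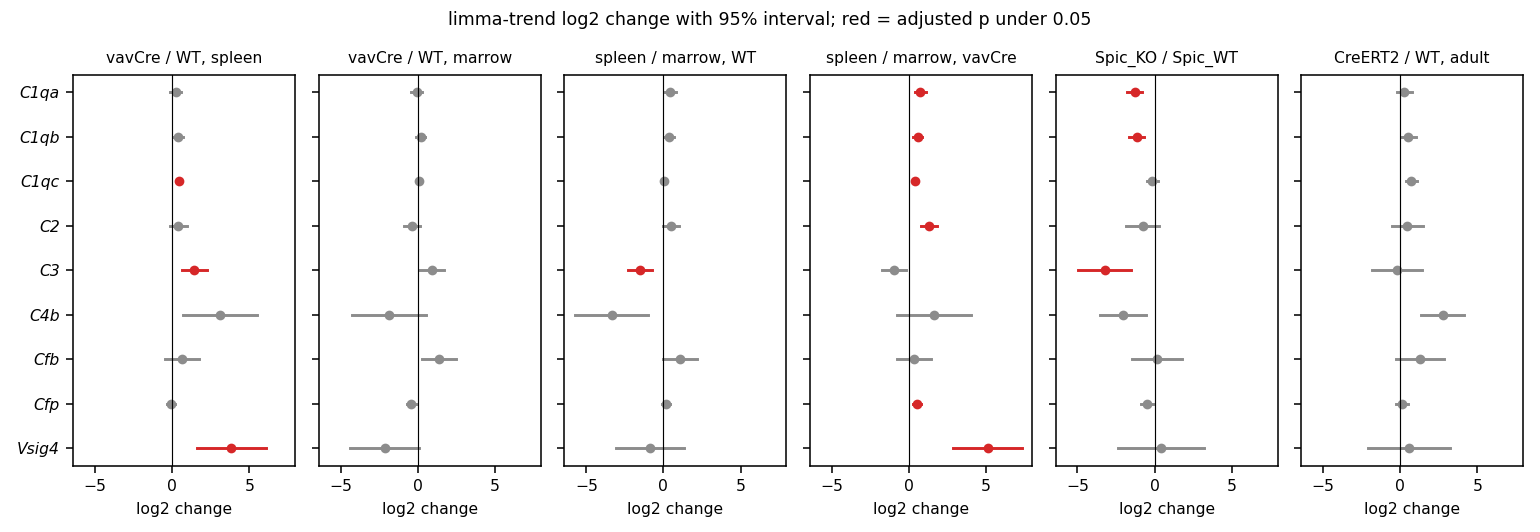
Log2 change of each gene with its 95% interval in 6 comparisons (x axis, limma on log2 of the value plus 1), in red where the adjusted p was under 0.05. The intervals of C1qc are the narrowest in most panels, and those of C4b and Vsig4 span several log2 units.

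Markers of other cells moved with vavCre. In spleen, the summed values of 10 neutrophil markers (S100a8, Mpo, Ltf and others) were 286 to 1735 in RPM_d7_WT and 2347 to 4648 in RPM_d7_vavCre, with 2 to 4 and 0 to 2 of the 10 at 0, and Mmp8 and Retnlg rose. Neutrophils also make properdin and C3. Summed erythroid markers were 223604 to 331938 and 114468 to 166003, and 8 of 10 fell. Summed endothelial and stromal markers, from cells that also make C3, C4b and factor B, were 4587 to 5881 and 1937 to 2748, and Pecam1 and Stab2 fell. The median log2 change of these 10 markers was 0.09, so the lower sum does not describe the list as a whole. Of 8 red pulp markers, Cd163, Itgad, Siglec1, Spic, Treml4 and Vcam1 fell and Slc40a1 rose. The summed macrophage markers were 66642 to 82392 in RPM_d7_WT and 110283 to 115376 in RPM_d7_vavCre, and Lyz2 alone of the 7 rose. Summed T and NK cell markers were 804 to 954 against 2641 to 3142, and Cd4 alone of the 8 rose, with 1 to 3 of the 8 at 0 in the vavCre libraries. The median log2 change of that list was -0.48, opposite to the sum. The T and NK cell list summed to 1539 to 2906 in BMM_d7_WT and 5233 to 6502 in BMM_d7_vavCre, where Cd4 alone rose and 3 to 6 of the 8 were at 0. Its median log2 change in marrow was -2.36, so the higher sum does not describe the list as a whole. The B cell list summed to 3522 to 9668 and 1151 to 2698 in those groups, and Cd79b and Pax5 fell. The macrophage list summed to 59675 to 69689 and 92229.9 to 106038 there (Adgre1, Csf1r and Lyz2 rose, Fcgr1 and Mertk fell). Pecam1, Stab2 and 5 of 8 red pulp markers fell in marrow as well. There, summed neutrophil markers were 946 to 3522 in BMM_d7_WT and 1183 to 1873 in BMM_d7_vavCre, and 10 of 10 erythroid markers fell. Between the vavCre tissues, 6 of 8 red pulp markers, 4 of 10 erythroid markers, Ltf of the neutrophil list and Pecam1 and Stab2 were higher in spleen. Cd68 and Fcgr1 of the macrophage list were higher there too, and that list had higher sums in spleen without overlap, as given above. Cd4, Igll1 and Vpreb1 were lower in spleen. In Spic_KO, summed red pulp markers were 10569 to 10573 against 19879 to 28904 in Spic_WT, summed macrophage markers 6761 to 6943 against 8420.4 to 12807 (Cd68 fell), and summed endothelial and stromal markers 311 to 422 against 575 to 670. The part of these cells in the complement values below was not tested.

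C1qc, the C chain, rose with vavCre in spleen. C1qc was read at 34230, 33660 and 36910 in RPM_d7_WT and at 53140, 43980 and 47120 in RPM_d7_vavCre, so all 3 vavCre libraries lay above all wild-type libraries. The log2 change was 0.46 (SE 0.09, limma adjusted p = 0.00361), and it was called in 16 of 16 alternative settings. C1qb was read at 40340, 36170 and 42390 in RPM_d7_WT and at 59600, 46600 and 49220 in RPM_d7_vavCre. Its groups did not overlap either, with a log2 change of 0.38 (SE 0.14) that missed the threshold (limma adjusted p = 0.139, 0.029 to 0.423 over the alternatives). C1qa was read at 17810, 14650 and 18310 in RPM_d7_WT and at 24660, 15830 and 19240 in RPM_d7_vavCre, and its groups overlapped (log2 change 0.22, SE 0.17, limma adjusted p = 0.638). The 3 chains together made up 0.936% ± 0.0557 of all values in RPM_d7_WT and 1.16% ± 0.133 in RPM_d7_vavCre (SD, n = 3 each). The 213 genes of 800 to 1200 exon bases and a mean of at least 100 had a median log2 change of 0.16. Their upper quartile was 0.374, with C1qa (1040 bases) below it and C1qb (1088 bases) just above. With a mean of at least 1000 (73 genes), the median was 0.21 and the quartile 0.462, with both chains below it. C1qc (1931 bases) lies above the upper quartiles of the class of 1800 to 2500 bases, 0.3125 and 0.3767. The part of length was not tested.

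In marrow the C1q chains of the 2 genotypes were close. C1qc was read at 30360, 38980 and 32980 in BMM_d7_WT and at 36480, 34920 and 36080 in BMM_d7_vavCre, with a log2 change of 0.08 (95% interval -0.11 to 0.27). C1qb was read at 23640, 40650 and 29040 in BMM_d7_WT and at 33730, 34500 and 36380 in BMM_d7_vavCre. C1qa was read at 9506, 17270 and 11560 in BMM_d7_WT and at 12420, 11150 and 11830 in BMM_d7_vavCre. Replicate 2 of BMM_d7_WT was the highest marrow library for all 3 chains, and without it C1qb was called in marrow (log2 change 0.41, limma adjusted p = 0.0253). The vavCre effect on C1qc did not pass the test of a difference between spleen and marrow (log2 difference 0.38, SE 0.13, limma adjusted p = 0.559). Among vavCre libraries the chains were higher in spleen than in marrow, by log2 0.73 for C1qa (SE 0.17, limma adjusted p = 0.0224), 0.56 for C1qb (SE 0.14, 0.0273) and 0.42 for C1qc (SE 0.09, 0.0131). Leaving out single libraries ended the call of C1qa and C1qb in 4 of 6 fits each and that of C1qc in 2 of 6, the highest adjusted p being 0.129, 0.141 and 0.0809, each without RPM_d7_vavCre replicate 1. Among wild-type libraries C1qa (log2 0.44, limma adjusted p = 0.196) and C1qb (0.38, 0.155) did not pass. Both passed without BMM_d7_WT replicate 2 (limma adjusted p = 0.0119 and 0.00281).

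C1qa and C1qb fell in Spic_KO and C1qc did not pass the test. C1qa was read at 3457, 2262 and 2696 in Spic_WT and at 1032 and 1222 in Spic_KO, so both knockout libraries lay below all wild-type libraries. The log2 change of C1qa was -1.30 (SE 0.24, limma adjusted p = 0.00324), called in 16 of 16 alternative settings. C1qb was read at 8229, 4956 and 5940 in Spic_WT and at 2943 and 2618 in Spic_KO, a log2 change of -1.17 (SE 0.24, limma adjusted p = 0.00852). Without Spic_KO replicate 2 the C1qb change was -1.08 and its limma adjusted p was 0.0955, with the lone knockout library assumed to vary like the other groups. C1qc was read at 6021, 4516 and 5412 in Spic_WT and at 4601 and 5015 in Spic_KO, and its groups overlapped (log2 change -0.14, 95% interval -0.49 to 0.22, limma adjusted p = 0.767).

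The proportions of the 3 chains therefore differed between these libraries. C1qa reads per C1qc read were 0.498 to 0.574 in Spic_WT and 0.224 to 0.244 in Spic_KO, and C1qb reads per C1qc read were 1.10 to 1.37 and 0.522 to 0.640. The ratio of C1qa to C1qb was 0.420 to 0.456 and 0.351 to 0.467, so the A and B chains kept overlapping proportions. An exact permutation test (two-sided) of each of the first 2 ratios gave p = 0.1, the smallest that 2 against 3 libraries allow, and 0.24 after adjustment over 12 such tests. In adults, C1qa per C1qc was at 0.160 to 0.226 in RPM_TAM_WT and 0.115 to 0.215 in RPM_TAM_CreERT2. All 12 libraries of the first table lay above these, at 0.313 to 0.520. C1qa and C1qb have exon lengths (union of all annotated exons) of 1040 and 1088 bases and C1qc has 1931. Over all genes with a mean of at least 100 in that table, the median log2 change in Spic_KO was 0.25 for the 74 genes of up to 800 bases, -0.40 for the 90 genes of 800 to 1200 bases, -0.17 for the 227 genes of 1800 to 2500 bases and 0.11 for the 1630 genes above 4000 bases. The lower quartile of the class of 800 to 1200 bases was -1.09, so C1qa and C1qb lie below it, while C1qc lies beside the median of its class. Among the 14 genes of 800 to 1200 bases with a mean of at least 1000, the median was -0.43 and the lower quartile -1.265. There C1qa (-1.298) lies just below the quartile and C1qb (-1.167) above it. The medians do not follow length in one direction, and the part of length in the C1q ratios was not tested.

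**Figure D3:**
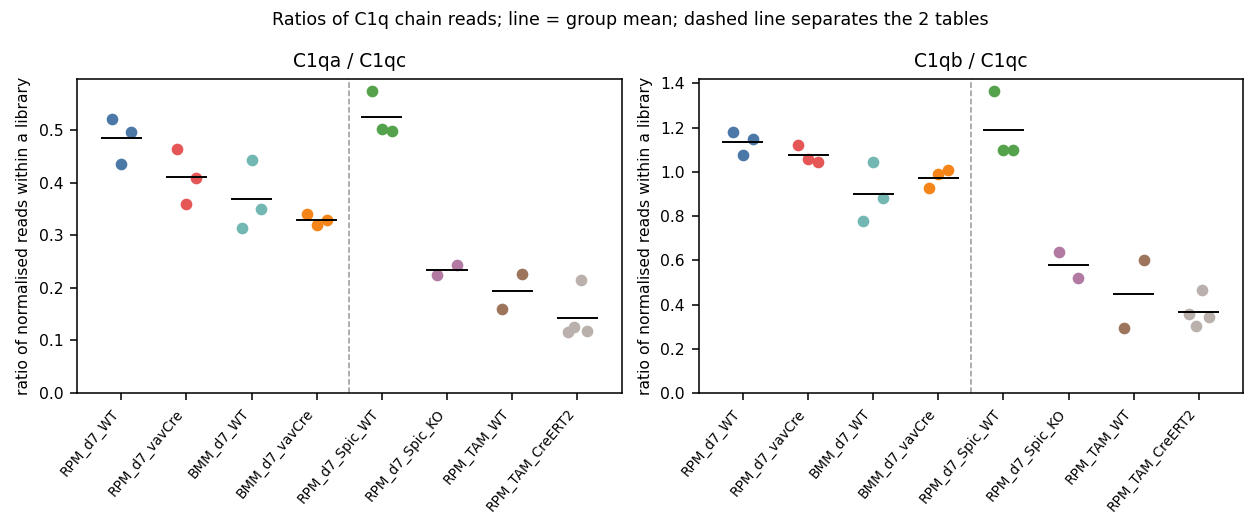
Ratio of C1qa to C1qc and of C1qb to C1qc normalised reads within each library (y axis, from 0), 1 point per library and a line at the group mean. The Spic_KO, RPM_TAM_WT and RPM_TAM_CreERT2 libraries lie at 0.115 to 0.244 for C1qa to C1qc, below all Spic_WT libraries and all libraries of the first table.

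**Figure D4:**
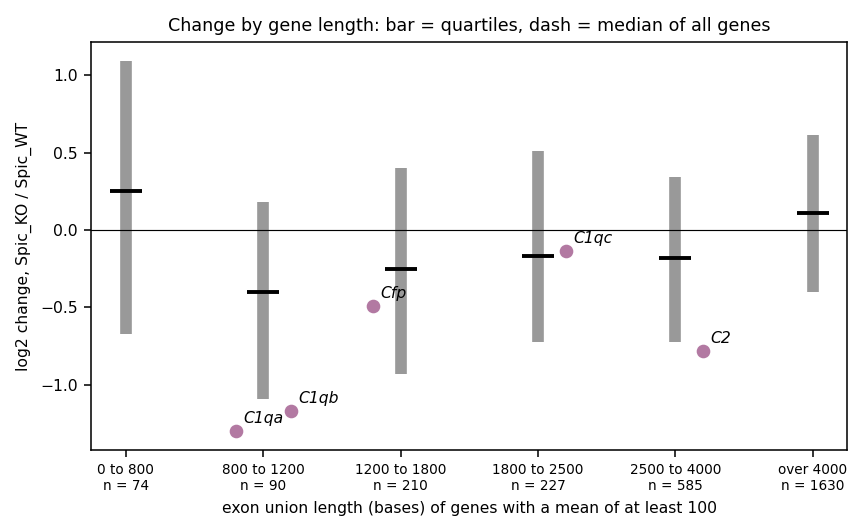
Log2 change in Spic_KO against Spic_WT (y axis) for genes with a mean of at least 100, by classes of exon length; bars span the quartiles, dashes are medians, and points are complement genes. C1qa and C1qb lie below the lower quartile of -1.09 in the class of 800 to 1200 bases. With a mean of at least 1000 (14 genes, not drawn) that quartile was -1.265, with C1qa below it and C1qb above it.

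In adult spleen C1qc had the smallest p of the chains. Between the adult groups the summed erythroid markers (116600 to 169593 in RPM_TAM_WT, 195333 to 357673 in RPM_TAM_CreERT2), T and NK cell markers (214 to 227, 483 to 1044) and B cell markers (917 to 1018, 464 to 561) did not overlap. The median log2 changes of these 3 lists were -0.28, 0.14 and -1.03, so the erythroid sum went opposite to the median of its list. Of the erythroid markers only Hba-a1 and Hba-a2 rose, and the red pulp marker Itgad fell. The part of these markers in the adult values was not tested. C1qc was read at 4262 and 4107 in RPM_TAM_WT and at 7147, 7341, 5752 and 7729 in RPM_TAM_CreERT2, with all CreERT2 libraries above both controls. The log2 change was 0.73 (SE 0.16) and did not pass the threshold (limma adjusted p = 0.096, 0.0126 to 0.441 over the alternatives). C1qb was read at 1253 and 2470 in RPM_TAM_WT and at 2551, 2207, 2690 and 2661 in RPM_TAM_CreERT2, and C1qa at 684 and 927 against 823, 924, 1234 and 908. The groups of both overlapped.

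C2, the protease of the classical convertase, was higher in spleen than in marrow among vavCre libraries. C2 was read at 2190, 2035 and 1308 in RPM_d7_vavCre and at 1082, 736 and 516 in BMM_d7_vavCre, without overlap. The log2 difference was 1.27 (SE 0.25, limma adjusted p = 0.00579), called in 16 of 16 alternative settings. In wild-type libraries C2 was read at 1404, 1117 and 1604 in spleen and at 810.4, 1112 and 1009 in marrow (log2 difference 0.49, SE 0.25, limma adjusted p = 0.358). The readthrough gene Gm20547, with which C2 shares exons, was also higher in vavCre spleen than in vavCre marrow (log2 difference 1.19, SE 0.29, limma adjusted p = 0.0261). In the second table C2 was read at 287.9, 242.5 and 264.1 in Spic_WT and at 98.1 and 239.6 in Spic_KO, and at 67.8 and 79.6 in RPM_TAM_WT and 234, 51.0, 99.7 and 88.6 in RPM_TAM_CreERT2. Neither of these comparisons passed (limma adjusted p = 0.445 and 0.827). Spic_KO replicate 1 was low and RPM_TAM_CreERT2 replicate 1 was high among the libraries of their groups.

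C4b, which supplies the other subunit of that convertase, was low in pups, and within the second table its mean was highest in RPM_TAM_CreERT2. C4b was read at 6.65, 9.97 and 0 in RPM_d7_WT and at 101.3, 9.33 and 50.8 in RPM_d7_vavCre. In marrow it was read at 68.4, 27.2 and 46.0 in BMM_d7_WT and at 18.8, 26.7 and 2.26 in BMM_d7_vavCre. The value of 0 comes from a library in which 3 reads, the limit that a count of 0 allows, would be worth 1.37. The fitted vavCre change was 3.12 in spleen and -1.89 in marrow, neither called, and the groups overlapped in spleen but not in marrow. The interaction did not pass (log2 difference 5.01, SE 1.62, limma adjusted p = 0.500). In adults C4b was read at 18.0 and 48.1 in RPM_TAM_WT and at 146.5, 296.9, 250.2 and 165.7 in RPM_TAM_CreERT2, with every CreERT2 library above both controls. The log2 change was 2.76 (SE 0.67) with a limma adjusted p of 0.168, and 3 of 16 alternative settings called it (0.0011 to 0.844). In Spic_KO it was read at 5.51 and 1.04 against 17.9, 7.71 and 20.1 in Spic_WT (log2 change -2.06, SE 0.71, limma adjusted p = 0.116). Without Spic_KO replicate 1 it was called (log2 change -2.90, limma adjusted p = 0.0185). Endothelial and stromal markers, from cells that make C4, summed to 516 to 607 in RPM_TAM_WT and 301 to 499 in RPM_TAM_CreERT2. Their median log2 change was 0.18, opposite to the sum, and their part was not tested.

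C3, the central component, rose with vavCre in spleen. C3 was read at 125.1, 196.9 and 81.2 in RPM_d7_WT and at 315.4, 300.1 and 430.0 in RPM_d7_vavCre, without overlap. The log2 change was 1.44 (SE 0.38, limma adjusted p = 0.0300). Leaving out any library but RPM_d7_WT replicate 2 ended the call, with adjusted p up to 0.155 (without RPM_d7_WT replicate 3, log2 change 1.13). In marrow C3 was read at 339.9, 303.1 and 460.9 in BMM_d7_WT and at 475.2, 511.5 and 1276 in BMM_d7_vavCre, again without overlap (log2 change 0.90, SE 0.38, limma adjusted p = 0.179). The interaction was 0.54 (SE 0.54, limma adjusted p = 0.918). Among wild-type libraries C3 was lower in spleen than in marrow (log2 difference -1.51, SE 0.38, limma adjusted p = 0.0294). Replicates 1 and 3 of RPM_d7_WT and of BMM_d7_WT each decide it: leaving out any one of the 4 gave an adjusted p of 0.0773 to 0.174. Neutrophil markers were higher in the RPM_d7_vavCre libraries than in RPM_d7_WT, as given above, and overlapped between BMM_d7_WT and BMM_d7_vavCre.

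C3 was scarce in the second table in pups. It was read at 15.4, 53.3 and 20.7 in Spic_WT and at 7.01 and 0 in Spic_KO, the 0 in a library where 3 reads are worth 1.55. The log2 change of -3.25 (SE 0.81, limma adjusted p = 0.0272) passed in 5 of 16 alternative settings. That change was called by DESeq2 and not by edgeR. Without Spic_KO replicate 2, the library at 0, it was -1.75 with a limma adjusted p of 0.315. Leaving out Spic_WT replicate 2 or 3 also ended the call (limma adjusted p = 0.136 and 0.0599). In adults C3 was read at 59.6 and 223.5 in RPM_TAM_WT and at 149.9, 77.6, 88.4 and 100.2 in RPM_TAM_CreERT2, inside the range of the controls.

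Cfb, factor B of the alternative convertase, passed in no comparison by limma. Cfb was read at 95.5, 234.3 and 183.4 in RPM_d7_WT and at 265.1, 319.6 and 182.5 in RPM_d7_vavCre. In marrow it was read at 120.7, 66.6 and 55.4 in BMM_d7_WT and at 414.5, 78.8 and 233.1 in BMM_d7_vavCre, where 2 vavCre libraries lay above all wild-type libraries (log2 change 1.36, SE 0.53, limma adjusted p = 0.143). Without BMM_d7_vavCre replicate 2 the log2 change was 2.01 and passed (limma adjusted p = 0.0157). In the second table Cfb was read at 11.9, 14.7 and 28.2 in Spic_WT and at 66.1 and 5.17 in Spic_KO, on both sides of the controls. In adults it was read at 35.9 and 37.3 in RPM_TAM_WT and at 93.1, 104.2, 120.4 and 60.4 in RPM_TAM_CreERT2, without overlap (log2 change 1.30, SE 0.74, limma adjusted p = 0.713). Cfb reads also cover exons of Gm20547.

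Cfp, properdin, was abundant in both tissues and at both ages. It was read at 18280, 13490 and 19120 in RPM_d7_WT and at 16910, 14900 and 15390 in RPM_d7_vavCre, fully overlapping (log2 change -0.09, 95% interval -0.37 to 0.18). In marrow Cfp was read at 12720, 17130 and 14830 in BMM_d7_WT and at 10120, 12290 and 10980 in BMM_d7_vavCre, with all vavCre libraries lower. That log2 change of -0.41 (SE 0.13) missed the threshold (limma adjusted p = 0.0582, 0.0306 to 0.205 over the alternatives), and without BMM_d7_WT replicate 1 it passed at -0.52 (limma adjusted p = 0.0306). Among vavCre libraries Cfp was higher in spleen by log2 0.50 (SE 0.13, limma adjusted p = 0.0372). That call held in 7 of 16 alternative settings and in 1 of the 6 fits that left out a library, the highest adjusted p being 0.143 without RPM_d7_vavCre replicate 1. In the second table Cfp was read at 2675, 1963 and 2494 in Spic_WT and at 1604 and 1762 in Spic_KO, lower without overlap but not called (log2 change -0.49, SE 0.20, limma adjusted p = 0.178). Adults had 1822 and 1932 in RPM_TAM_WT and 2173, 1759, 2156 and 2094 in RPM_TAM_CreERT2.

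Vsig4, the receptor for C3 fragments, rose with vavCre in spleen. Vsig4 was read at 9.67, 9.97 and 5.48 in RPM_d7_WT and at 43.6, 173.8 and 280.0 in RPM_d7_vavCre, from 12 to 16 and 71 to 353 reads a library. All vavCre libraries lay above all wild-type libraries, with a spread of several fold among themselves. The log2 change was 3.83 (SE 1.06, limma adjusted p = 0.0402), called in 9 of 16 alternative settings. Leaving out single libraries ended the call in 5 of 6 fits, with adjusted p up to 0.194 (without RPM_d7_vavCre replicate 3, log2 change 3.27). In marrow Vsig4 was read at 12.1, 10.51 and 30.3 in BMM_d7_WT and at 0, 15.8 and 2.26 in BMM_d7_vavCre, from 13 reads a library at most in the latter. The value of 0 allows up to 6.28 in that library. The marrow change of -2.14 (SE 1.06) did not pass (limma adjusted p = 0.267), and neither did the interaction of 5.97 (SE 1.503, limma adjusted p = 0.261), which DESeq2 called (adjusted p = 0.00392). Between vavCre tissues Vsig4 was higher in spleen (log2 difference 5.10, SE 1.06, limma adjusted p = 0.00941), and not without RPM_d7_vavCre replicate 2 (limma adjusted p = 0.0503) or 3 (0.0685).

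In the second table Vsig4 was near the limit of detection. It was read at 1.01, 0 and 11.7 in Spic_WT and at 14.5 and 0 in Spic_KO, where 3 reads are worth 1.05 and 1.55 in the libraries at 0. In adults it was read at 10.6 and 24.6 in RPM_TAM_WT and at 31.8, 124.1, 10.4 and 8.99 in RPM_TAM_CreERT2, and the groups overlapped. The highest of these was RPM_TAM_CreERT2 replicate 2, the library with the fewest reads.

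Other genes of the complement system were counted from a list of 50, also chosen with earlier results of these data known. Of these, 49 were in the tables and 33 and 40 could be tested. With vavCre in spleen 7 of 33 rose and 3 fell, beside the 5.52% of all genes that changed, and in marrow 5 rose and 1 fell, beside 7.81%. The receptors for the anaphylatoxins C3a and C5a stood first. C3ar1 had a mean of 214 ± 39.9 in RPM_d7_WT and 2500 ± 302 in RPM_d7_vavCre, a log2 change of 3.55 (SE 0.22, limma adjusted p = 2.60e-09), and in marrow 571 ± 152 and 3570 ± 589 (log2 change 2.67, SE 0.22). C5ar1 had 53.0 ± 28.4 and 1667 ± 316 in spleen (log2 change 5.05, SE 0.33) and 117.3 ± 25.8 and 1153 ± 85.2 in marrow (log2 change 3.31, SE 0.33; SD, n = 3 for each mean). Both stayed called when each library was left out in turn. The receptor Cd33 rose by log2 2.34 in spleen and 2.07 in marrow.

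For the difference between the spleen and marrow effects, limma and edgeR called 0 of 33, with 5 at an unadjusted p under 0.05 in each, and DESeq2 called 2 (C5ar1 and Fcna). Over all genes, limma called 0.119% for it, and DESeq2 68 higher and 25 lower of 15003. Cd55, the membrane factor that breaks up convertases, rose by log2 1.82 in spleen and 1.85 in marrow. Among genes of initiation, Colec12, a collectin of the cell surface, rose by 1.72 in spleen and 1.19 in marrow, the latter lost in 3 of the 6 fits that left out a library. In spleen Itgax, the alpha chain of complement receptor 4, fell (log2 change -3.20, limma adjusted p = 0.00922), and that call was lost in 2 of the 6 fits that left out a library, with adjusted p up to 0.0644. Itgam, the alpha chain of complement receptor 3, rose (log2 change 1.89, limma adjusted p = 0.0200), a call lost in 4 of the 6 fits, with adjusted p up to 0.108. Lrp1 fell by log2 0.61 in spleen and 0.49 in marrow. Neutrophils and monocytes carry C5ar1 too, and the part of the neutrophil markers given above was not tested.

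**Figure D5:**
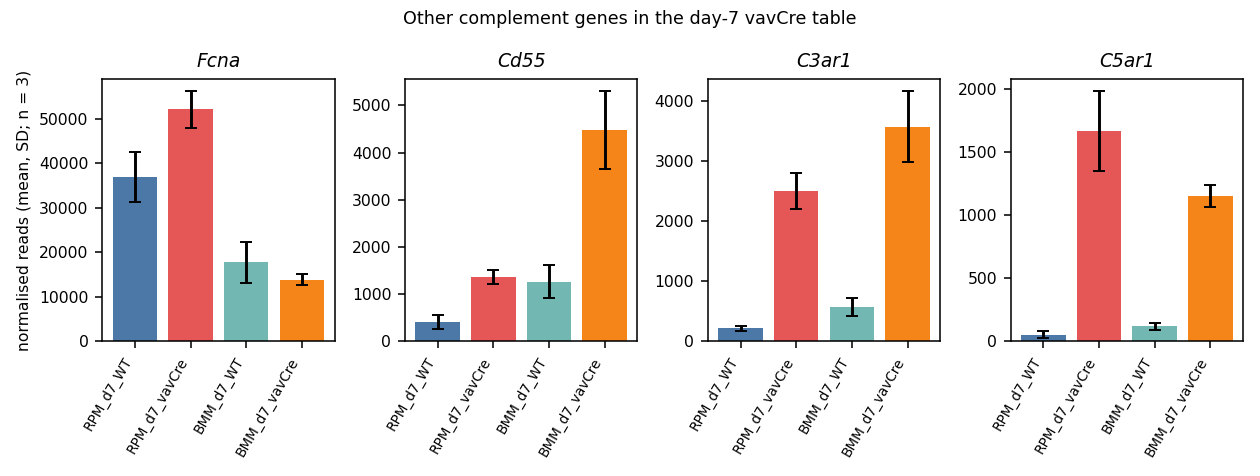
Mean normalised reads (bars, with SD over 3 libraries) of Fcna, Cd55, C3ar1 and C5ar1 in the 4 groups of the first table. C3ar1 and C5ar1 are higher in both vavCre groups than in their wild types, and Fcna is higher in both spleen groups (37000 and 52103) than in both marrow groups (17713 and 13817).

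Tissue and Spic_KO changed other members of that list. Between wild-type tissues 4 of 33 were higher in spleen and 6 lower, beside the 3.89% of all genes that differed, among them Colec12 (log2 difference -2.25), C3ar1 (-1.39) and Cd55 (-1.67) lower in spleen, and Fcna (1.08), C6 (4.65), Lair1 (1.09) and Itgb2 (0.88) higher. Fcna encodes ficolin A, a recognition protein of the lectin pathway made by macrophages, and C6 is a part of the membrane attack complex. Between vavCre tissues, where 3.5% of all genes differed, 4 were higher in spleen (Fcna by 1.92, C6 by 3.79, Cr1l by 0.92 and Lair1 by 0.99) and 2 lower (Cd55 by -1.70 and Colec12 by -1.71). In Spic_KO 3 of 40 rose and 4 fell, beside the 3.95% of all genes that changed. Fcna had a mean of 3924 ± 1126 in Spic_WT (SD, n = 3) and was read at 50.6 and 113.3 in Spic_KO, a log2 change of -5.64 (SE 0.39, limma adjusted p = 2.96e-08). Cd55 (-3.65), Itgb2 (-1.89) and Lrp1 (-1.20) also fell, and C5ar1 (3.84), C3ar1 (2.93) and Cd33 (1.73) rose. The calls of Cd55 (without Spic_KO replicate 2, limma adjusted p = 0.0557), Cd33 and Lrp1 did not hold with every library left out in turn, those of Cd33 and Lrp1 holding in 2 and 1 of 5 fits. The composition of the Spic_KO libraries given above applies to these values too. In RPM_TAM_CreERT2 limma called 0 of 40, with 8 at an unadjusted p under 0.05, edgeR called 0 and DESeq2 called 4 (C3ar1, C5ar1 and Cd55 higher, Clu lower). Over all genes, limma called 0.144% there, and DESeq2 64 higher and 66 lower of 16602. The median log2 change of the list was -0.07 with vavCre in spleen (all genes -0.02), -0.28 in marrow (-0.04), 0.52 for the interaction (0.03), 0.20 between wild-type tissues (0.02), 0.34 between vavCre tissues (0.03), -0.05 in Spic_KO (0) and 0.28 in RPM_TAM_CreERT2 (0).

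The genes whose pattern over the 12 libraries of the first table was most like that of each complement gene were found by the root mean square difference of log2 values, each centred on its mean, among 10593 genes. Small differences are easier to reach for genes that vary little, and the libraries share their groups and depth, so these are descriptions. For the mean of the C1q chains they were Rab1b (0.117), Cd68 (0.121) and Rsu1 (0.122), where the median gene was at 0.562. Cd68 is a lysosomal glycoprotein of macrophages, and its difference from C1q over the 11 libraries of the second table was 0.395. For Cfp they were Ywhah (0.134), Gmps (0.136) and Parl (0.143), with a median gene at 0.543. For C2 the nearest were Napa (0.290), Txndc15 (0.294) and Mpdu1 (0.298), against 0.748 for the median gene. C3 had Ptafr (0.349), Itga6 (0.358) and Nfatc2 (0.400) nearest, against 1.10, but Ptafr and Itga6 were at 2.002 and 2.26 in the second table. Ptafr is the receptor for platelet-activating factor. Cfb had Zfp658, Ankrd24 and Pxdc1 at 0.442 to 0.489, against 1.02. The nearest genes of C4b (Zfp455, Pglyrp1 and Spats2l, 1.03 to 1.28) and of Vsig4 (Nr4a2, Zfp97 and Amigo1, 1.27 to 1.39) stayed over 1 log2 unit away.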

How the data were processed

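Poly(A) RNA of 1000 sorted macrophages per library was copied with oligo-dT primers, PCR-amplified and fragmented by transposase (per the labels' protocols). The authors deposited 2 tables of normalised read counts, a signal per gene and library scaled within each table. STAR, edgeR and GRCm38 are named without version or role, per the submitters' processing notes. Low values are whole multiples of 1 read, which gave the reads per library: 97.7 to 100% of values up to 500 reads came out whole within 0.1 read (first table) and 96.6 to 100% (second table).

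Genes reaching 1 in 2 or more libraries were tested on log2(value + 1) with limma 3.58.1 (R 4.3.3, trend and robust), all groups of a table in 1 fit with 8 and 7 residual degrees of freedom, and p-values were adjusted by Benjamini-Hochberg over all genes tested. A fold change on this scale understates the change of low genes. The alternatives were no filter and a filter of 10, pseudocounts of 0.1 and 5, library weights, the compared groups alone, a replicate block, each library left out, and edgeR 4.0.16 (TMM and RLE factors) and DESeq2 1.42.0 on the recovered reads. Leaving out 2 doubted libraries, the C1q ratios and the length classes were chosen after seeing the data. The members and lists were chosen with earlier results of these data known. Named beside the 9 genes are at most the 8 pathway genes called with the smallest p in a comparison, and the 3 genes nearest in pattern. Gene positions come from GENCODE vM21 (22214 and 25587 identifiers matched) and promoters from RefSeq. A few listed genes are not reported here. The scripts were tested on simulated data. Intervals on changes cover the spread between libraries, and the limit of 3 reads at a count of 0 covers counting error only.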

Additional observations from a re-analysis of the deposited data

How the results depend on the processing

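Of 1053 values of the 9 genes recomputed under the alternatives, over 63 results, 962 kept their direction and side of the threshold, 54 lost a call, 23 gained one and 14 changed sign, none of the latter a called result. The number of the 9 genes called with vavCre in spleen was 3, and 1 without a filter (1 to 2 leaving out a library). In marrow it was 0, and 1 with the strict filter, a pseudocount of 0.1 or only the compared groups, 2 with DESeq2, and 0 to 1 leaving out a library. For the interaction it was 0, and 1 with DESeq2 (0 leaving out a library). Between wild-type tissues it was 1, with 0 without a filter, 3 with library weights and 0 to 3 leaving out a library. Between vavCre tissues it was 6, with 3 without a filter and 2 to 4 leaving out a library. In Spic_KO it was 3, with 1 without both doubted libraries and 1 to 4 leaving out a library, where 1 remaining Spic_KO library is assumed to vary like the other groups. In RPM_TAM_CreERT2 it was 0, with 1 with only the compared groups, 1 with edgeR RLE, 2 with DESeq2 and 0 leaving out a library. The cause was not tested. Vsig4 changed sign in Spic_KO with library weights (-0.0171, main value 0.42) and in RPM_TAM_CreERT2 without both doubted libraries (-0.155, main value 0.60). Leaving out a library gave log2 ranges across 0 for Cfp in spleen (-0.25 to 0.000648), in marrow for C1qa (-0.26 to 0.17) and C1qc (-0.00138 to 0.18), for the C1qb interaction (-0.0302 to 0.36), for C1qc between wild-type tissues (-0.0387 to 0.14), for Cfb between vavCre tissues (-0.32 to 0.87), in Spic_KO for Cfb (-1.55 to 1.89) and Vsig4 (-1.56 to 2.40), and in RPM_TAM_CreERT2 for C3 (-1.14 to 0.75) and Vsig4 (-0.15 to 1.17). Same-numbered replicates did not deviate together (correlations of -0.0453 to 0.0823). With so few libraries a group, this cannot exclude that equal numbers share an animal or a batch, which the labels do not give. With a replicate block the counts were 3, 0, 0, 1, 5 and 2 in the order above up to Spic_KO, with Cfp between vavCre tissues (adjusted p = 0.0559) and C3 in Spic_KO (0.0634) no longer called, and the adult groups share too few numbers for one. DESeq2 and edgeR RLE moved the median of all genes in RPM_TAM_CreERT2 by 0.111 and 0.110, and the strict filter and the compared groups alone moved that in Spic_KO to -0.148 and -0.169. Over all genes, called counts moved by over 1.5 times in spleen vavCre (451 up and 384 down, against 753 and 735 with library weights, 670 and 697 with only the compared groups and 689 and 601 with DESeq2), marrow vavCre (516 and 666 against 355 and 387 with only the compared groups), the interaction (17 and 1 against 11 and 0 without a filter, 29 and 2 with edgeR and 68 and 25 with DESeq2), wild-type tissues (313 and 275 against 502 and 462 with library weights and 445 and 507 with DESeq2), Spic_KO (245 and 413 against 131 and 201 with the replicate block, and 135 up with library weights) and RPM_TAM_CreERT2 (10 and 14 against 2 and 3 without a filter, 7 and 7 or 3 and 6 with the lower or higher pseudocount, 24 and 13 with only the compared groups, 64 and 66 with DESeq2 and 18 and 29 without both doubted libraries). Leaving out a library moved these counts over 1.5 times too: in Spic_KO they were 955 and 1017 or 90 and 207 without Spic_KO replicate 1 or 2, and 105 and 156, 151 and 204 or 133 and 183 without Spic_WT replicate 1, 2 or 3. In RPM_TAM_CreERT2 the lowest was 1 and 1 (without RPM_TAM_WT replicate 1). Between wild-type tissues they were 188 and 145 or 145 and 124 without RPM_d7_WT replicate 1 or 3, and 184 and 121 or 185 and 130 without BMM_d7_WT replicate 1 or 3. Between vavCre tissues (405 and 124) they were 216 and 55, 265 and 74 or 245 and 72 without RPM_d7_vavCre replicate 1, 2 or 3, and in spleen vavCre the lowest was 287 up, without RPM_d7_vavCre replicate 2. Depth limits Vsig4, C4b and, in Spic_KO, C3, which rest on few reads a library.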
